A study of Mus musculus with 10 samples.

Results

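Bone marrow derived macrophages labelled Tlr4 knockout (Tlr4 -/-, KO) and pre-treated with Poly(I:C), a man-made polymer that mimics viral double-stranded RNA, were compared with untreated macrophages of the same label. The 4 libraries were taken by their titles, 2 with Poly(I:C) and 2 untreated, out of 10 in the series. All 10 are mRNA libraries of bone marrow derived macrophages (BMDM) from C57BL/6 mice, that is, primary macrophages grown from marrow. Every KO group carried the same labelled genotype, so the comparison is one of treatment within that genotype. The labels give neither the dose of Poly(I:C) nor how long it was applied, and they give no medium or time for untreated cells. The nearest other groups were KO cells after 6 h in the control medium, which held 5% fetal bovine serum (FBS) and 2% bovine serum albumin (BSA), and WT cells either untreated or in that medium, with 2 libraries each. Sex, age and the number of mice are not stated, and the labels are silent on whether the replicates stem from different cultures or mice. The spread that p-values measure here may therefore be technical.

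Double-stranded RNA is a sign of viral replication. In macrophages it is sensed in endosomes by TLR3, which signals through the adaptor TRIF, and in the cytosol by the helicases MDA5 and RIG-I, which signal through MAVS. These routes activate the kinases TBK1 and IKKε and the factors IRF3, IRF7 and NF-κB. Interferon-β made in this way acts back through its receptor, JAK kinases and STAT factors with IRF9 to switch on interferon-stimulated genes. TLR4, the receptor for bacterial lipopolysaccharide, is not needed for any of these steps but uses TRIF as well as MyD88. The comparison shows what the cells labelled as lacking TLR4 express when they are given this ligand.

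Tlr4 itself was read in every library. It was not called, and it stood at 44.3 and 44.9 CPM in the untreated libraries, at 47.9 and 64.7 CPM with Poly(I:C) and at 30.8 and 34.6 CPM in the KO control medium, where CPM stands for deposited units scaled to a common library total. Both Poly(I:C) values lay above both untreated ones, and the log2 difference of 0.32 (SE 0.14) had an adjusted p of 0.0703 (limma). The call depended on the setting. Tlr4 was called higher without the first Poly(I:C) library (0.54), with the deposited scaling (0.50), with median-of-ratios scaling, with the rlog values and with the replicate number as a block, and called lower with scaling by totals alone (−0.45). With 1 value per gene the position of the reads along Tlr4 is unknown, so the level does not check the deletion, and genotypes are given as labelled. Deposited totals were 25.2 and 26.0 M units in untreated KO cells and 47.5 and 51.7 M with Poly(I:C), and the TMM scaling factors were 1.21 and 1.19 against 0.718 and 0.690. The replicates of each of the 5 groups correlated across genes at 0.992 to 0.994 (Pearson, log scale, 13171 genes). Mitochondrial transcripts made up 1.68% to 2.46% of the units in the 4 libraries. The macrophage genes Lyz2 and Csf1r were abundant in all 4 libraries and did not pass the test, with log2 differences of −0.22 and −0.15. With scaling by totals alone both were called lower (−0.99 and −0.92), and so was Csf1r without the second Poly(I:C) library (−0.23). Lyz2 encodes lysozyme and read 18074 and 19141 CPM untreated and 15409 and 16491 CPM with Poly(I:C).

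Poly(I:C) went with a change in most of the transcriptome. Antiviral and other interferon-stimulated genes, chemokines and cytokines rose by up to 3 orders of magnitude, and genes of cell division and of fatty acid oxidation fell. A gene was called when its adjusted p was below 0.05 (limma, Benjamini-Hochberg over 13171 genes, no fold threshold). By that rule 9460 genes were called, 71.8% of those tested. Of these 4606 rose (35% of genes tested) and 4854 fell (36.9%). Among the called genes 521 rose by more than 3 on the log2 scale and 179 fell by more than 3, with 153 and 6 beyond 5. The high tail was thus longer than the low one, while the median over all genes was −0.02. The median absolute difference of a called gene was 1.07. In the authors' deposited rlog table, used as a check, all 9460 called genes had the same sign. That table holds the same libraries, so it is no independent check of direction. Because so many genes were called, the count of a list below is read against 35% up and 36.9% down. The division into rises and falls rests on the scaling. With scaling by totals alone the median of all genes moved to −0.77 and rises made up 20.3% of the calls in place of 48.7%. With the deposited scaling the median was 0.15 and rises made up 57.6%. Differences are therefore relative to the bulk of genes, and a rise smaller than that shift of −0.77 can turn to a fall with another scaling.

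**Figure D1:**
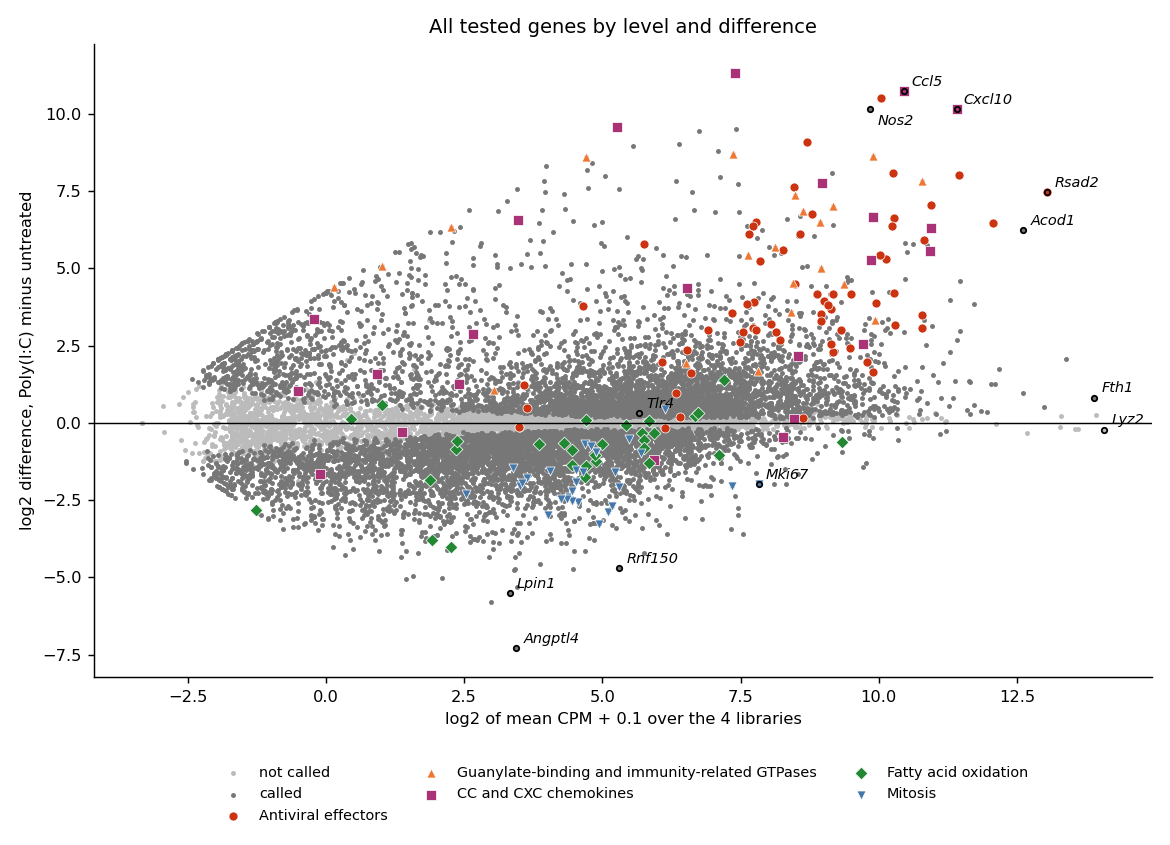
Each point is 1 of 13171 tested genes, with the log2 of its mean CPM over the 4 libraries on the x axis and the log2 difference, Poly(I:C) minus untreated, on the y axis (pseudocount 0.1, which sets the value of genes listed at 0). Grey shades separate called genes from the others, and coloured symbols show 5 gene lists. Most antiviral genes, all GTPases and most chemokines lie above 0, mitosis genes lie between 0.46 and −3.26, and Lyz2 and Tlr4 lie near 0.

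**Figure D2:**
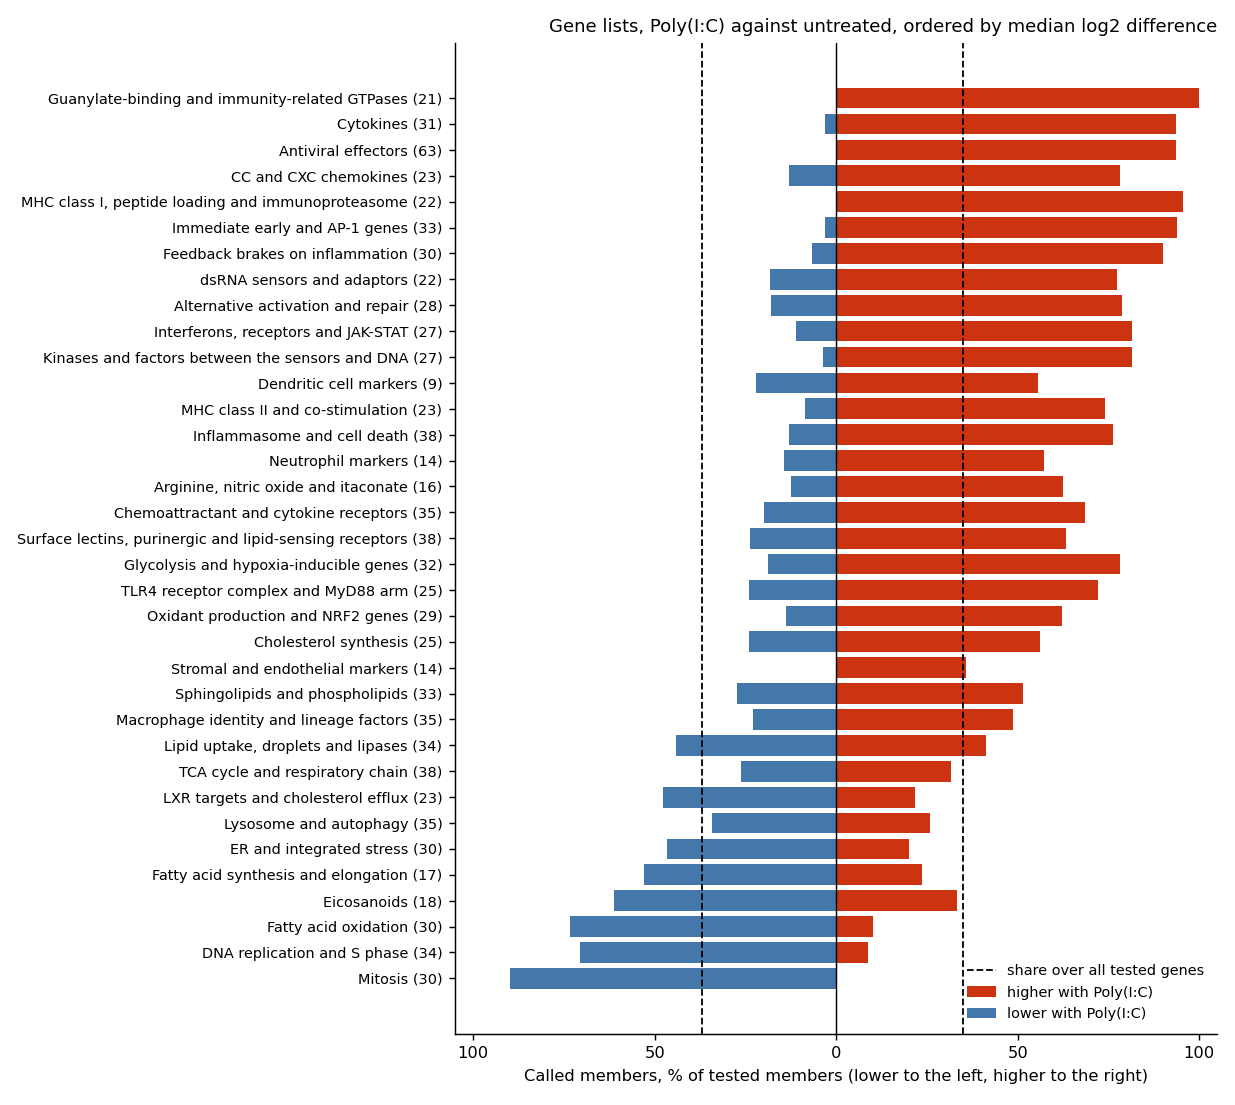
Bars give the share of the tested members of each gene list that were called higher (right) or lower (left) with Poly(I:C), with the number of tested members in brackets, for the lists with at least 9. Dashed lines mark the shares over all genes, 35% up and 36.9% down; lists are ordered by median log2 difference, from 5.45 for the GTPases to −1.96 for mitosis.

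The receptors and adaptors of double-stranded RNA rose in most cases. Of 22 tested members 17 rose, 4 fell and 1 was not called, with a median log2 difference of 1.93 against −0.02 over all genes. By totals alone 15 rose and 6 fell, with a median of 1.16. Tlr3 stood at 9.89 and 11.1 CPM in untreated cells and at 166 and 199 CPM with Poly(I:C), a log2 difference of 4.10 (SE 0.12, limma adjusted p = 1.41e-09). Ifih1, which encodes MDA5, went from 47.0 and 61.9 to 1213 and 1444 CPM (4.61, SE 0.16). Ddx58, which encodes RIG-I, went from 69.8 and 86.0 to 983 and 1084 CPM (3.73). In all 3 sensors both treated libraries were more than 10 times above both untreated ones. Zbp1, a sensor of Z-form nucleic acid that can start necroptosis, had the largest rise of the list (5.06, from 23.1 to 758 CPM, means over 2 libraries as elsewhere where 1 value is given). Eif2ak2, the kinase PKR that halts translation, rose by 2.71, and Adar, which edits double-stranded RNA, by 2.48. The adaptors moved in both directions. Ticam1, which encodes TRIF, rose by 1.15 from 40.8 and 44.1 to 93.1 and 95.3 CPM. Mavs fell by 1.60 from 63.1 and 67.0 to 21.9 and 20.8 CPM, and Prkra, an activator of PKR, fell by 1.46. Dicer1, the small RNA nuclease, fell by 0.75.

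Between the sensors and DNA, the kinases and transcription factors rose in 22 of 27 cases and fell in 1, with a median of 1.54 (15 and 10, with 0.77, by totals alone). Irf7, the factor that amplifies interferon production, had the largest rise and went from 44.1 and 55.4 to 2673 and 2902 CPM (5.81, SE 0.20, limma adjusted p = 4.27e-09). Irf3, which acts before new synthesis and is controlled by phosphorylation, read 31.8 and 24.3 and then 34.4 and 26.4 CPM (0.12, not called). The kinase genes Tbk1 and Ikbke rose by 1.55 and 1.54. All 5 NF-κB subunit genes rose, most of all Nfkb2 (3.11, from 44.0 to 380.5 CPM), then Nfkb1 (2.47), Rel (2.46), Relb (2.21) and Rela (1.60). Nlrc5, the transactivator of MHC class I genes, rose by 3.55. The single member that fell was Fadd, an adaptor of death receptors (−0.34), a call that was lost without the second Poly(I:C) or the first untreated library, with the deposited scaling and with only these groups in the fit. In the list of the TLR4 complex and the MyD88 arm 18 of 25 members rose and 6 fell, with a median of 0.69 that turned to −0.08 with scaling by totals alone (11 and 11). Myd88 rose by 2.87 and Cd14, the lipopolysaccharide co-receptor, by 2.15. Sigirr, an inhibitor of this family, and Tlr5, the flagellin receptor, fell by 2.66 and 2.67.

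The interferon-β gene read above 0 in both Poly(I:C) libraries and in neither untreated KO library, and most genes of its receptor pathway rose. Ifnb1 was listed at 0 in both untreated libraries and read 33.2 and 29.9 CPM with Poly(I:C) and 0.0659 and 0 CPM in the KO control medium. Ifna2 and Ifna5 were also listed at 0 untreated and read 0.617 and 1.12 CPM and 0.529 and 0.477 CPM with Poly(I:C). No fold is given for these 3 genes. Of 27 tested members of the interferon and JAK-STAT list 22 rose and 3 fell, with a median of 1.74 (19 and 5 by totals alone). Stat2, which pairs with IRF9, went from 91.2 and 118 to 1023 and 1044 CPM (3.31, SE 0.16, limma adjusted p = 3.09e-08), Irf9 rose by 1.40 and Irf1 by 3.24. Jak2 rose by 3.67 and Tyk2, the kinase at the interferon-α/β receptor, by 1.74. The receptor chain genes Ifnar1 and Ifnar2 rose by 0.92 and 0.83, while Ifngr1, a chain of the interferon-γ receptor, fell by 1.44 from 152 and 158 to 54.0 and 59.9 CPM. Genes that limit the pathway rose with it. Usp18, which removes ISG15 and blocks the receptor, went from 11.7 and 15.2 to 1089 and 1178 CPM (6.40), Socs1 rose by 5.09 and Socs3 by 4.43.

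Antiviral effectors rose almost throughout. Of 63 tested members 59 rose, 0 fell and 4 were not called (among them Ifi27, Ifitm2 and Trim5), with a median log2 difference of 3.79 (55 and 4, with 3.03, by totals alone). Rsad2, which encodes viperin, an enzyme that makes a chain-terminating nucleotide, went from 82.7 and 109 CPM to 15594 and 18008 CPM (7.46, SE 0.21, limma adjusted p = 1.28e-09). Ifi205, a member of the interferon-inducible p200 family, had the largest rise of the list, from 0.914 and 1.94 to 1995 and 2196 CPM (10.51, SE 0.27). Ifit1bl1 rose by 9.10, Oasl1 by 8.09 and the nucleotide kinase gene Cmpk2 by 8.04. Ifit1, which binds viral RNA lacking a host cap, went from 26.0 and 33.0 to 3573 and 4265 CPM (7.05). Isg15, a ubiquitin-like modifier, went from 25.4 and 31.9 to 2369.8 and 2382 CPM (6.38), and Mx1, of the dynamin-like GTPase family, from 22.3 and 27.6 to 2362 and 2544 CPM (6.62). The 2 groups did not overlap for any of these genes, as for most tested genes (41.7% higher and 44.1% lower without overlap). At the other end, the membrane proteins Ifitm3 and Bst2 rose less, by 1.98 and 2.28. The p200, Ifit, Oas1 and Slfn families hold near-identical copies, so the division of reads among their members is uncertain.

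All 21 guanylate-binding proteins and immunity-related GTPases, which attack the vacuoles of intracellular pathogens, rose, with a median of 5.45. Gbp5, which promotes inflammasome assembly, went from 4.83 and 4.44 to 1715 and 2073 CPM (8.64, SE 0.12, limma adjusted p = 1.66e-11). Gbp4 rose by 8.70 from 0.683 CPM, Gbp2 by 7.84, Iigp1 by 7.38 and Irgm1 by 4.51. Gbp2b was listed at 0 untreated and read 1.97 and 2.08 CPM. The antiviral and GTPase lists together summed to 5109 and 6117 CPM in untreated cells, 6186 and 7569 CPM in the KO control medium and 101274 and 114105 CPM with Poly(I:C). Their joint level in both treated libraries was therefore well above that in all 4 other KO libraries.

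**Figure D3:**
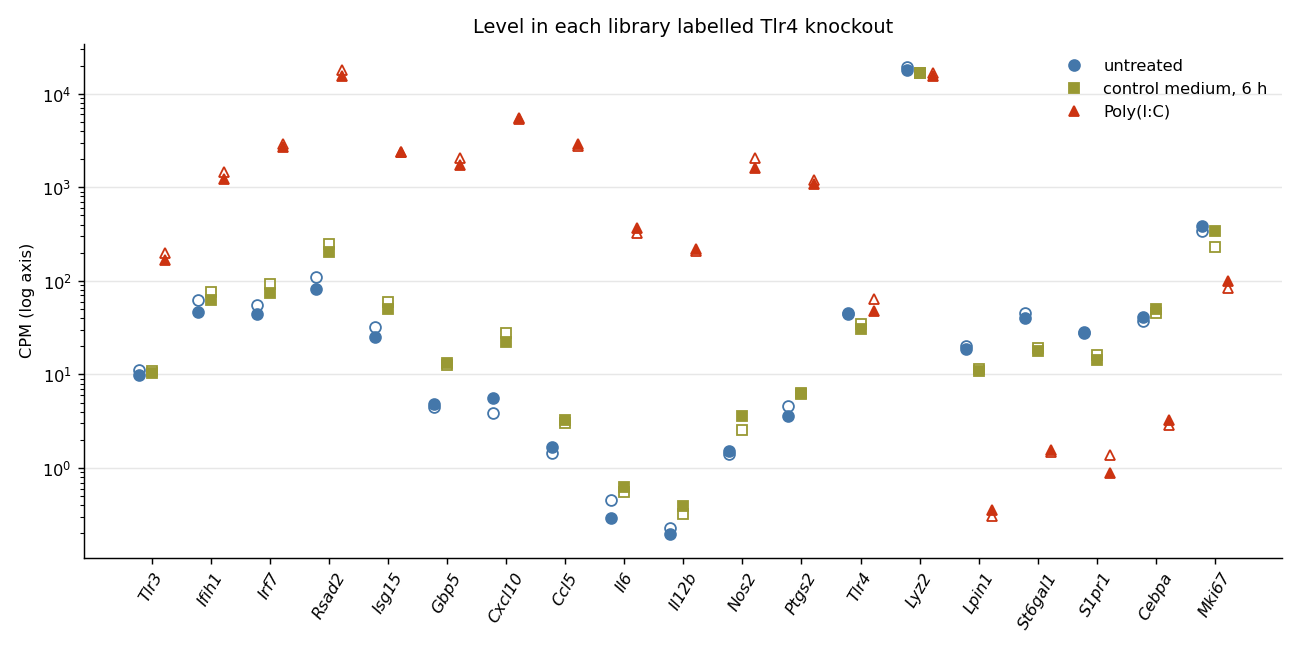
CPM on a log axis for 19 genes in the 6 libraries labelled Tlr4 knockout: circles untreated, squares control medium, triangles Poly(I:C), filled for replicate 1 and open for replicate 2. From Tlr3 to Ptgs2 the triangles stand apart above the rest, for Tlr4 and Lyz2 they lie beside the untreated circles, and from Lpin1 to Mki67 they lie below.

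Promoters of 5 rising genes are shown because 4 of them hold letters of the element that STAT2 and IRF9 bind as a complex, and 3 those of the NF-κB element. They run from 250 bases before to 50 bases after the annotated start, from RefSeq on GRCm38.p6, in the direction of transcription, with each match in capitals. The interferon-stimulated response element (ISRE) was searched as GAAANNGAAA on both strands, and the kappaB site by its usual degenerate decamer, also on both strands.
Isg15: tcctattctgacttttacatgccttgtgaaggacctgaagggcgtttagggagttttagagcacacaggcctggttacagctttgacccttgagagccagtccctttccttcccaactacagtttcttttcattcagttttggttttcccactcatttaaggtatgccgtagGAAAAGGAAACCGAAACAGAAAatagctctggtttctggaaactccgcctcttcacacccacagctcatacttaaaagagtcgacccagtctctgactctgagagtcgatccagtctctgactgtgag
Ifit1: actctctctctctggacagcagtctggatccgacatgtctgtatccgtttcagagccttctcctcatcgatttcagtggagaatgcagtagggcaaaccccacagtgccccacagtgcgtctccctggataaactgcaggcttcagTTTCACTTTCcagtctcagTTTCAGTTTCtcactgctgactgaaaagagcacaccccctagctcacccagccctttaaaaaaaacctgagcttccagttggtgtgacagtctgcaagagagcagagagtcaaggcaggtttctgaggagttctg
Gbp5: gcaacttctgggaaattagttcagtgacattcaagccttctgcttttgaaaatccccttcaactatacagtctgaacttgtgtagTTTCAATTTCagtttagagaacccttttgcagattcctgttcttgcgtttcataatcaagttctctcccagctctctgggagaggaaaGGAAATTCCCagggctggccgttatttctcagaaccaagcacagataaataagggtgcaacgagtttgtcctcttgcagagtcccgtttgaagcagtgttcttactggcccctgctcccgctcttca
Cxcl10: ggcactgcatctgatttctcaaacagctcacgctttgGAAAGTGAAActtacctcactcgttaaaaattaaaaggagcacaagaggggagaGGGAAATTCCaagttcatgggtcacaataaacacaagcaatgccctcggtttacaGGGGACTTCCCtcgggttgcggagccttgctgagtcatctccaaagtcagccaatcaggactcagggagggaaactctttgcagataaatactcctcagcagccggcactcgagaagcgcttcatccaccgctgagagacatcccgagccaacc
Ifnb1: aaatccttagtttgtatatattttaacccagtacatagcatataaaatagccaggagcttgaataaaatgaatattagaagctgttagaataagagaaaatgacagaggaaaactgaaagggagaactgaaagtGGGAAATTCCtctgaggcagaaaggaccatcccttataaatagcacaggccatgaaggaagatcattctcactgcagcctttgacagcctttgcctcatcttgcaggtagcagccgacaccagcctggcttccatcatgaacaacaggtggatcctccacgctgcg
The Isg15 window (chr4:156200769-156201068, minus strand) holds 3 overlapping ISRE matches that begin 78, 72 and 66 bases before the start. The Ifit1 window (chr19:34640639-34640938, plus strand) holds 2, at 104 and 85 bases before it. The Gbp5 window (chr3:142496684-142496983, plus strand) holds 1 ISRE match at 165 bases and 1 kappaB match at 77 bases. The Cxcl10 window (chr5:92348840-92349139, minus strand) holds 1 ISRE match at 213 bases and 3 kappaB matches, of which 2 overlap, at 159, 104 and 103 bases. The Ifnb1 window (chr4:88522745-88523044, minus strand) holds 1 kappaB match at 116 bases and no ISRE match by these letters. No ISRE match overlaps a kappaB match.

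Across genes, ISRE matches were more frequent where the rise was larger. Of the 13171 tested genes 9917 had a promoter in the table, and 4.12% of these held an ISRE match, as did 3.44% of all 32851 promoters of the table. The share was 6.37% of 3483 genes called up and 2.89% of 3806 called down. It was 19.7% of the 345 that rose by more than 3 on the log2 scale and 1.54% of the 130 that fell by more than 3. Among the lists searched it was 84.6% of 13 GTPase genes, 52.1% of 48 antiviral genes, 26.3% of 19 MHC class I genes, 13.3% of 15 chemokines, 8.33% of 24 cytokines, 5.56% of 18 cholesterol genes, 4.0% of 25 mitosis genes and 0 of 27 brakes on inflammation. The kappaB match was more common in general, at 12.3% of tested genes, 13.8% of those called up and 11.3% of those called down. It was found in 19.1% of genes that rose by more than 3 and 13.8% of those that fell by more than 3. In the same lists it was highest in the MHC class I genes (47.4%), followed by the chemokines (33.3%), the brakes (29.6%), the cytokines (29.2%), the antiviral genes (22.9%), the cholesterol genes (16.7%) and the GTPases (15.4%), with 3 of the 25 mitosis genes. The sterol regulatory element, searched as TCACNCCAC, was at 1.36% of tested genes, 1.35% of those called up and 1.37% of those called down, and in 1 of the 18 cholesterol genes. These shares describe letters in a fixed window and carry no test.

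Chemokines that attract T cells, NK cells and monocytes rose strongly. Of 23 tested chemokines 18 rose and 3 fell, with a median of 3.36 (16 and 5 by totals alone, 17 and 1 without the second untreated library). Cxcl10, a ligand of CXCR3 on T cells, went from 5.55 and 3.89 to 5501 and 5341 CPM (10.16, SE 0.17, limma adjusted p = 6.11e-11). Ccl5, an attractant of T cells and monocytes, went from 1.67 and 1.46 to 2868 and 2771 CPM (10.73, SE 0.23). The other 2 CXCR3 ligands were close to or at 0 before treatment. Cxcl9 read 0 and 0.0648 CPM untreated and 269 and 408 CPM with Poly(I:C), and Cxcl11 was listed at 0 and then read 77.6 and 76.2 CPM. The monocyte attractants Ccl2, Ccl7 and Ccl12 rose by 5.29, 6.66 and 7.77, and Ccl3 and Ccl4 by 5.56 and 6.30. The neutrophil attractants went both ways. Cxcl2 rose by 4.36 to 176 CPM and Cxcl1 by 2.88. Cxcl5 fell by 1.67 and Ppbp by 1.21, and Ccl6 fell by 0.44. The calls of Cxcl5 and Ppbp were lost without the second untreated library, and each without 1 of the Poly(I:C) libraries.

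Among cytokines 29 of 31 tested members rose and 1 fell, with a median of 3.95. Il6 went from 0.294 and 0.454 to 365 and 322 CPM (9.52, SE 0.23, limma adjusted p = 6.9e-10). Il12b, the p40 chain of interleukins 12 and 23, went from 0.196 and 0.227 to 221 and 209.6 CPM (9.44). Tnf stood at 46.6 and 50.7 CPM and reached 1991 and 2007 CPM (5.36). Il1b rose by 6.05 and Il1rn, the antagonist of its receptor, by 5.76 to 3823 and 3567 CPM. Csf3, the granulocyte growth factor, rose by 8.96, Edn1, the vasoconstrictor endothelin 1, by 8.81, and Il27 by 7.47. Il10, an anti-inflammatory cytokine, rose by 3.90 from 10.4 to 156 CPM. The pair that presents interleukin 15, Il15 and Il15ra, rose by 4.14 and 4.94. The angiogenic factor Vegfa was the member that fell, by 1.86 from 78.1 and 82.0 to 21.3 and 22.7 CPM. Of 35 receptors for chemoattractants and cytokines 24 rose and 7 fell, with a median of 1.11 (21 and 9, with 0.38, by totals alone). Ccrl2, an atypical chemerin receptor, rose by 5.41, and Tnfrsf1b by 2.67 to 4702 CPM. Il6ra fell by 1.28, Ccr1 by 1.09 and Cxcr4 by 1.08.

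Genes that restrain inflammation rose beside those that drive it. Of 30 tested brakes 27 rose and 2 fell, with a median of 1.96 (23 and 5 by totals alone). Tnfaip3, the deubiquitinase A20, went from 51.2 and 59.5 to 1266 and 1366 CPM (4.57, SE 0.11, limma adjusted p = 5.68e-10). Dusp2 and Dusp1, phosphatases of MAP kinases, rose by 5.39 and 4.04. Nfkbia, the inhibitor IκBα, rose by 2.88, and Zfp36, which destroys cytokine mRNAs, by 3.93. Its relatives Zfp36l1 and Zfp36l2 were the 2 that fell, by 1.76 and 1.32. Of 33 immediate early and AP-1 genes 31 rose and 1, Batf3, fell, while none fell with the deposited scaling or without 1 of 3 libraries in turn. Batf2 rose by 5.30, Egr1 by 4.77 and Junb by 3.72, while Fos and Jun rose by 1.03 and 0.81.

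Antigen presentation through MHC class I rose in 21 of 22 tested genes and fell in none, with a median of 2.49 (18 and 2 by totals alone). Tap1 and Tap2, the peptide transporter, rose by 3.03 and 2.52, the immunoproteasome subunit Psmb10 by 3.79 and the non-classical gene H2-T22 by 3.42. H2-K1 went from 788 and 764 to 2622 and 2834 CPM (1.81), and B2m rose by 1.34. H2-Q6 had the largest value, 5.15, but shares reads with near-identical class I genes. The class II gene H2-Ab1 read 5.03 and 3.69 CPM untreated and 7.93 and 6.93 CPM with Poly(I:C), and the class II transactivator Ciita stayed under 1 CPM in all 4 libraries. In the list of class II and co-stimulatory genes 17 of 23 rose and 2 fell, with a median of 1.53 (11 and 5 by totals alone). Cd40 went from 6.40 and 6.68 to 609 and 672 CPM (6.59, SE 0.11, limma adjusted p = 6.37e-11), Cd274, which encodes PD-L1, rose by 4.67 to 2728 CPM, and Cd86 by 3.31.

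Inflammasome and cell death genes rose in 29 of 38 cases and fell in 5, with a median of 1.30 (21 and 11 by totals alone). Nlrp3 rose by 3.93 from 43.9 and 44.7 to 646 and 710.3 CPM, Casp4, the mouse caspase 11 that senses cytosolic lipopolysaccharide, by 3.75, Casp1 by 2.85 and the pore former Gsdmd by 1.43. Mlkl, the executioner of necroptosis, rose by 3.80. The survival gene Bcl2a1d, which has near-identical copies, rose by 4.67. Nlrp1b fell by 2.15 and Gsdme by 1.47.

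Genes that make nitric oxide and itaconate rose. Nos2, which encodes inducible nitric oxide synthase, went from 1.53 and 1.43 to 1591 and 2076 CPM (10.17, SE 0.19, limma adjusted p = 1.04e-10). Its arginine importer Slc7a2 rose by 7.83, Gch1, which makes its cofactor, by 4.15 and Ass1, which recycles citrulline, by 3.46. Acod1, which makes itaconate, went from 153 and 175 to 12165 and 12567 CPM (6.24). Arg1, the competing arginase, fell by 0.84 from 42.7 and 46.1 to 24.1 and 25.5 CPM, and Arg2, the mitochondrial arginase, rose by 3.12. In all 10 of 16 tested members rose and 2 fell (8 and 6 by totals alone).

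Most glycolysis genes rose, while those of the tricarboxylic acid (TCA) cycle and respiratory chain were split. Of 32 glycolysis and hypoxia-inducible genes 25 rose and 6 fell, with a median of 0.73 that turned to −0.04 with scaling by totals alone (13 and 14). The glucose transporters Slc2a6 and Slc2a1 rose by 5.50 and 2.83, Pfkfb3, which makes the activator of phosphofructokinase, by 2.93, and Hif1a by 1.55. Pfkm, the muscle phosphofructokinase, fell by 1.70 and the glucose transporter Slc2a3 by 1.18. Of 38 TCA and respiratory chain genes 12 rose and 10 fell, with a median of 0.04. By totals alone 1 rose and 37 fell, with a median of −0.73, and with the deposited scaling 18 rose and 6 fell, so the direction of this list rests on the scaling. Idh1, counted in this list, encodes the cytosolic isocitrate dehydrogenase and not the enzyme of the cycle. It fell by 2.53 from 182 and 193 to 33.8 and 31.1 CPM, and its mitochondrial relative Idh2 by 0.87. Cycs, which encodes cytochrome c, rose by 2.16. Of 29 genes of oxidant production and the NRF2 response 18 rose and 4 fell, with a median of 0.67 (9 and 12, with −0.10, by totals alone). Sod2, the mitochondrial superoxide dismutase, rose by 2.75, the cystine importer Slc7a11 by 2.68 and the oxidase subunit Cybb by 1.94. Catalase (Cat) fell by 0.99, and Gclc, which limits glutathione synthesis, by 0.57.

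Fatty acid oxidation genes were mostly lower. Of 30 tested genes 22 fell and 3 rose, with a median of −0.69 (27 and 1 by totals alone, 22 and 1 without the first untreated library). Cpt1a, which commits fatty acids to mitochondria, fell by 1.05 from 177 and 194 to 83.1 and 95.9 CPM. Acadm, the medium-chain dehydrogenase, fell by 1.76 (SE 0.08, limma adjusted p = 3.09e-08), and the thioesterase genes Acot1 and Acot2, which are near-identical in sequence, by 4.02 and 3.81. Pdk4 read 0.424 and 0.842 CPM untreated and was listed at 0 in both Poly(I:C) libraries. In the list of fatty acid synthesis and elongation 9 of 17 members fell and 4 rose (14 and 0 by totals alone). The desaturase gene Fads1 went from 49.0 and 54.4 to 5.64 and 5.22 CPM (−3.23), Scd2 fell by 2.28 and Elovl7 by 3.59. Part of these genes were lower in the control medium too. Of the 30 oxidation genes 15 fell in KO cells in that medium, against the same untreated libraries, and 0 rose. Over all 13171 tested genes 1431 rose and 1193 fell there.

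Cholesterol synthesis genes were split. Of 25 tested genes 14 rose and 6 fell, with a median of 0.56. The number that fell was 3 without the second Poly(I:C) library and 3 with the deposited scaling, and by totals alone 8 rose and 12 fell, with a median of −0.21. Hmgcs1, an early enzyme, went from 43.7 and 48.6 to 140.2 and 149 CPM (1.65, SE 0.10, limma adjusted p = 1.88e-07), and Idi1, an isomerase further along, rose by 1.82. Dhcr7, the last enzyme, fell by 1.83 from 16.6 and 15.2 to 4.70 and 4.10 CPM, and Tm7sf2, a sterol reductase, by 0.74. In the control medium, set against the same untreated libraries, 14 members rose and 1 fell (1431 and 1193 of 13171 over all tested genes). Ch25h, which makes the antiviral sterol 25-hydroxycholesterol, went from 0.522 and 0.0648 to 175 and 161 CPM (9.03, SE 0.48). Of 23 genes of the LXR and efflux list 5 rose and 11 fell, with a median of −0.01. By totals alone 4 rose and 16 fell, with a median of −0.78, with the deposited scaling 8 rose and 9 fell, with 0.17, and under the replicate block 8 rose and 11 fell. The efflux transporters went opposite ways. Abca1 fell by 1.01 from 197 and 245 to 88.9 and 133 CPM, and Abcg1 rose by 1.45 from 56.4 and 67.5 to 143 and 200.1 CPM. Rxra, the partner of LXR, fell by 2.44, and Lipa, the lysosomal acid lipase, by 1.44.

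Lipid uptake and storage genes rose in 14 of 34 cases and fell in 15, with a median of 0.06. By totals alone 10 rose and 21 fell, with −0.71. Olr1, a receptor for oxidised lipoprotein, rose by 5.35, Dgat2, which makes triglyceride, by 4.46, the fatty acid binding gene Fabp3 by 3.93 and Acsl1, an acyl-CoA synthetase induced by inflammation, by 3.48. Lpin1, a phosphatidate phosphatase, went from 18.9 and 20.1 to 0.352 and 0.309 CPM (−5.51, SE 0.20, limma adjusted p = 5.6e-09). Angptl4, an inhibitor of lipoprotein lipase, went from 19.9 and 23.3 to 0.0881 and 0 CPM (−7.30, a value set in part by the pseudocount because 1 library is at 0). G0s2, an inhibitor of adipose triglyceride lipase, fell by 3.61. Plin2, the droplet coat protein, stood at 1048 and 1168 CPM untreated, 804 and 780.3 CPM with Poly(I:C) and 239 and 258 CPM in the control medium. Its fall of 0.48 with Poly(I:C) was the smaller of the 2. Lpl, lipoprotein lipase, fell by 0.36 with Poly(I:C), a call lost without the first Poly(I:C) or the second untreated library and with the deposited scaling, while it rose by 0.76 in the control medium.

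**Figure D4:**
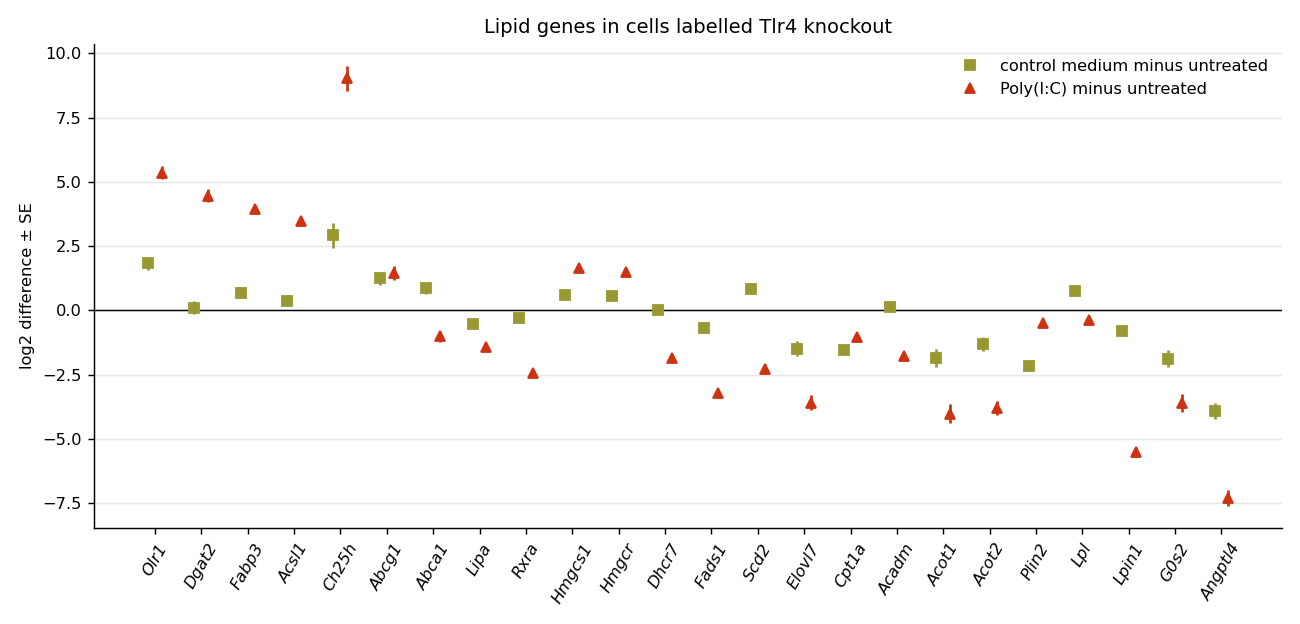
Log2 difference from untreated KO cells, with its SE from the fit, for 24 lipid genes in the KO control medium (squares) and with Poly(I:C) (triangles); both share the untreated libraries. Ch25h, Olr1, Dgat2 and Fabp3 stand highest with Poly(I:C), Angptl4 and Lpin1 lowest, and Plin2 and Cpt1a are lower in the control medium than with Poly(I:C).

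The inducible genes of prostaglandin E2 synthesis rose, while most other eicosanoid genes fell. Ptgs2, which encodes cyclooxygenase 2, went from 3.56 and 4.60 to 1083 and 1194 CPM (8.10, SE 0.16, limma adjusted p = 1.71e-10), and Ptges, the prostaglandin E2 synthase, rose by 4.27. Ptgs1, the constitutive enzyme, fell by 1.63, the leukotriene gene Alox5 by 1.51 and Hpgd, which breaks prostaglandins down, by 2.85. Over the list 6 of 18 members rose and 11 fell (3 and 12 by totals alone). Of 33 sphingolipid and phospholipid genes 17 rose and 9 fell, with a median of 0.30 (8 and 18, with −0.47, by totals alone). Cers6 and Ugcg, which make ceramide and glucosylceramide, rose by 2.20 and 1.81, and the ceramide kinase Cerk fell by 2.69. Of 38 surface lectins and small-molecule receptors 24 rose and 9 fell (16 and 15 by totals alone). Gpr84, a receptor for medium-chain fatty acids, rose by 6.23, Clec4e, the lectin Mincle, by 5.53, Hcar2, a niacin receptor, by 5.04 and the adenosine receptor Adora2a by 4.68. S1pr1, a receptor for sphingosine 1-phosphate, fell by 4.55 from 28.6 and 27.7 to 0.881 and 1.37 CPM, and the inhibitory receptor Cd300a fell by 3.11.

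Cell division genes were lower with Poly(I:C). Of 30 mitosis genes 27 fell and 0 rose, with a median of −1.96. Mki67 went from 385 and 337 to 99.5 and 83.9 CPM (−1.98, SE 0.31, limma adjusted p = 0.000215), the cyclin gene Ccna2 fell by 2.69 and the checkpoint kinase Bub1b by 3.26. Of 34 genes of DNA replication 24 fell and 3 rose, with a median of −1.79; the number that rose was 1 by totals alone and 5 with the deposited scaling, the replicate block or only these groups in the fit. Rrm2, a subunit of ribonucleotide reductase, fell by 3.25 and Cdc6, a licensing factor, by 2.93. The 3 that rose were Cdt1, also a licensing factor (1.69, from 29.5 and 18.0 to 81.1 and 68.7 CPM), Rfc3 (1.17) and Pcna (0.77, or −0.0019 with scaling by totals alone). In the KO control medium 0 mitosis genes were called and 3 of the 34 replication genes fell, against 1193 of all 13171 tested genes. The fall was also seen without Poly(I:C) in WT cells in the control medium, set against untreated WT cells. There 4354 of 13171 tested genes fell, among them 30 of 30 mitosis genes, with a median of −2.07, and 27 of 34 replication genes, with −1.68. In bulk RNA, fewer dividing cells and less of these mRNAs per cell cannot be told apart. Of 30 genes of ER and integrated stress 6 rose and 14 fell, with a median of −0.25 (3 and 24 by totals alone). The phosphatase subunit Ppp1r15a, which restarts translation, rose by 3.10, while the kinase PERK (Eif2ak3) fell by 2.21 and the ATF4 target Trib3 by 1.99. In the KO control medium 14 of these 30 fell and 0 rose, against 1193 and 1431 of all 13171 tested genes.

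Macrophage identity genes were split. Of 35 tested members 17 rose and 8 fell, with a median of 0.18 that turned to −0.58 with scaling by totals alone (8 and 22). The Fc receptor gene Fcgr1 rose by 3.21 from 149 and 186 to 1495 and 1592 CPM, and Axl, a receptor for apoptotic cells, by 3.03. The lineage factor Cebpa fell by 3.62 from 40.8 and 37.3 to 3.29 and 2.89 CPM, while Cebpb rose by 2.22 from 12.4 and 4.60 to 49.4 and 25.8 CPM. The mannose receptor Mrc1 fell by 1.65. Of 28 genes of alternative activation and repair 22 rose and 5 fell, with a median of 1.86 (22 and 3 with the deposited scaling). By totals alone 17 rose and 7 fell, with 1.15, and with a pseudocount of 1 the median was 1.23. Those that rose most included Mmp13, a collagenase, which rose by 6.78 and Serpinb2, an inhibitor of plasminogen activators, which rose by 6.54. Clec10a, a lectin of alternative activation, fell by 1.69. This list joins genes of alternative activation and of repair, so its count does not measure alternative activation alone. Lysosome and autophagy genes rose in 9 of 35 cases and fell in 12, with a median of −0.09. By totals alone 4 rose and 27 fell, with −0.86, and with the deposited scaling 15 rose and 8 fell, with 0.09. Ctsc, the cathepsin that activates granule proteases, rose by 2.52, and the autophagy genes Wipi1 and Ulk1 fell by 1.49 and 1.29.

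Over all genes, the 12 largest falls were taken among genes with at least 5 CPM in the higher group and a value above 0 in each library. Engase, a cytosolic glycosidase, fell by 5.79 from 17.4 and 13.4 to 0.264 and 0.112 CPM. Next came Lpin1, the zinc finger gene Zfp395 (−5.31), the nuclease gene Ankle1 (−5.04), Pcyt1b of phosphatidylcholine synthesis (−4.97), Kctd12b (−4.76) and the cannabinoid receptor Cnr2 (−4.74). The sialyltransferase St6gal1 went from 40.2 and 45.3 to 1.56 and 1.49 CPM (−4.72, SE 0.11, limma adjusted p = 6.42e-10), and the RING finger gene Rnf150 from 70.7 and 81.0 to 2.58 and 3.09 CPM (−4.70). The 12 are completed by S1pr1, Bmf, a pro-apoptotic BH3-only gene (−4.35), and the palmitoyltransferase Zdhhc14 (−4.35). For each of these the 2 groups did not overlap. Over all tested genes 41.7% were higher and 44.1% lower without overlap. By CPM, which is not corrected for length, the most abundant genes that rose were the ferritin chain Fth1, from 10497 and 11679 to 19377 and 19448 CPM (0.81), the cytoskeletal Actb (2.07) and Rsad2. The most abundant that fell were the elongation factor Eef2 (−0.27, a call lost without 3 of the 4 libraries in turn and in 5 other settings), Lpl and the selenoprotein Selenop (−0.55).

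The same Poly(I:C) libraries were also set against KO cells in the control medium. There 9132 genes were called, 69.3% of those tested, of which 4357 were higher (33.1%) and 4775 lower (36.3%) with Poly(I:C). This comparison shares the Poly(I:C) libraries with the one above, so the 2 are given side by side. Of the 63 antiviral genes 60 were higher, with a median of 3.28 (3.79 against untreated), and all 21 GTPases, with 4.73 (5.45). Of 31 cytokines 28 were higher, with a median of 3.82 (3.95), and of 30 mitosis genes 27 were lower, with −1.71 (−1.96). Cxcl10 differed by 7.76, Rsad2 by 6.21 and Nos2 by 9.17. For lipid genes the counts differed from those against untreated cells. Of 25 cholesterol genes 9 were higher and 8 lower against the control medium, with a median of −0.03 in place of 0.56. These cholesterol counts were near the 33.1% and 36.3% over all genes. Oxidation genes were higher in 8 and lower in 16 of 30 cases, with a median of −0.37 in place of −0.69. Plin2 was higher by 1.67 (SE 0.08) and Lpl differed by −1.12 against the control medium, and Abca1 differed by −1.86.

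The KO response to Poly(I:C) was set beside the response of WT cells to the control medium, with which it shares no library. Across 13171 genes the 2 sets of log2 differences had a Pearson r of 0.943, which describes genes of 1 culture type under 1 scaling and not independent replicates. Of the 9460 genes called with Poly(I:C) 9179 (97.0%) had the same sign in the WT response. The difference between the responses was tested itself in the same fit. It was called for 1295 genes (9.83%), 817 with the Poly(I:C) value higher (6.2%) and 478 lower (3.63%). Of the 1295, 792 rose with Poly(I:C) by more than in the WT response and 37 by less, while 401 fell by more and 5 by less, and 60 were not called with Poly(I:C). The split rests on the scaling: with totals alone the median of all genes moved to −0.24 and 20.5% of 2467 calls were higher, in place of 63.1%. The count also depended on single libraries and on the trend. It was 438 without WT control medium 1, 582 without KO Poly(I:C) 2, 689 and 696 without KO untreated 2 and 1, 860 without KO Poly(I:C) 1, and 842 without the trend.

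Many interferon-stimulated genes rose in both responses, and further than in the WT response. The WT control medium, set against untreated WT cells, gave 8680 calls among 13171 genes, of which 4326 rose. There 58 of 63 antiviral genes rose and 1 fell, with a median of 2.73, and 20 of 21 GTPases rose, with 4.11. Cytokines rose there in 28 of 31 cases and fell in 1, with 3.34. Of 63 antiviral genes 47 had a larger value with Poly(I:C) and 0 a smaller one, with a median difference of 1.02. The 47 became 26 without WT control medium 1, 27 without KO Poly(I:C) 2, 32 without KO untreated 1, 29 without the trend and 55 under the replicate block, and the median ranged from 0.77 to 1.19. For the GTPases it was 18 of 21, with 1.35. The 18 became 10 without WT control medium 1, 11 without KO Poly(I:C) 2, 12 without either KO untreated library and 21 under the block. Under none of the settings was a member of these lists called smaller. Ifnb1 read 0.920 and 1.45 CPM in the WT control medium and 33.2 and 29.9 CPM in KO cells with Poly(I:C). Cxcl10 read 1207 and 1548 CPM in the WT control medium against 5501 and 5341 CPM, and its response was larger by 2.80 (SE 0.24, limma adjusted p = 0.00086). The responses of Rsad2 and Nos2 were larger by 2.21 and 2.11, and that of Il6 by 2.12. Tnf differed by 1.07 and Tlr3 by 1.02. Of 22 double-stranded RNA sensors and adaptors 15 were higher and 1, Mavs (−0.57), lower. The 15 became 5 without WT control medium 1, 6 without KO Poly(I:C) 2, 8 without KO untreated 1, 10 without KO Poly(I:C) 1 or WT untreated 2, 8 without the trend and 9 with no filter. A few inflammatory genes had the opposite order, with calls that rested on the setting. Il12b read 337 and 233 CPM in the WT control medium against 221 and 209.6 CPM, a difference between the responses of −1.32 (SE 0.33, limma adjusted p = 0.0336), and Cxcl3 differed by −1.70. The call of Il12b was lost in 11 of 19 alternatives and that of Cxcl3 in 7, both among others without the trend and without WT control medium 1. In the oxidant and NRF2 list 8 of 29 genes were lower relative to the WT response and 0 higher, among them Gclc (−0.95) and Slc7a11 (−0.99, a call lost in 7 of 19 alternatives). The 8 became 4 without WT control medium 1, 5 without KO Poly(I:C) 2 or KO untreated 2, and 12 by totals alone. In the cholesterol list 8 of 25 were lower and 0 higher, a count that did not hold. It was 0 without KO Poly(I:C) 2, without WT control medium 1 and without the trend, 1 without either KO untreated library, 2 or 3 without either WT untreated library, 5 without KO Poly(I:C) 1, 2 with the deposited scaling, with no filter or with only the groups of the contrast, and 14 by totals alone. Lpin1, Cebpa and Scd2 fell further than in WT cells, with differences of −1.71, −1.59 and −1.54. Genotype and ligand both differ between these responses, and medium and time may differ too, as neither is stated for Poly(I:C). These differences cannot be told apart.

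**Figure D5:**
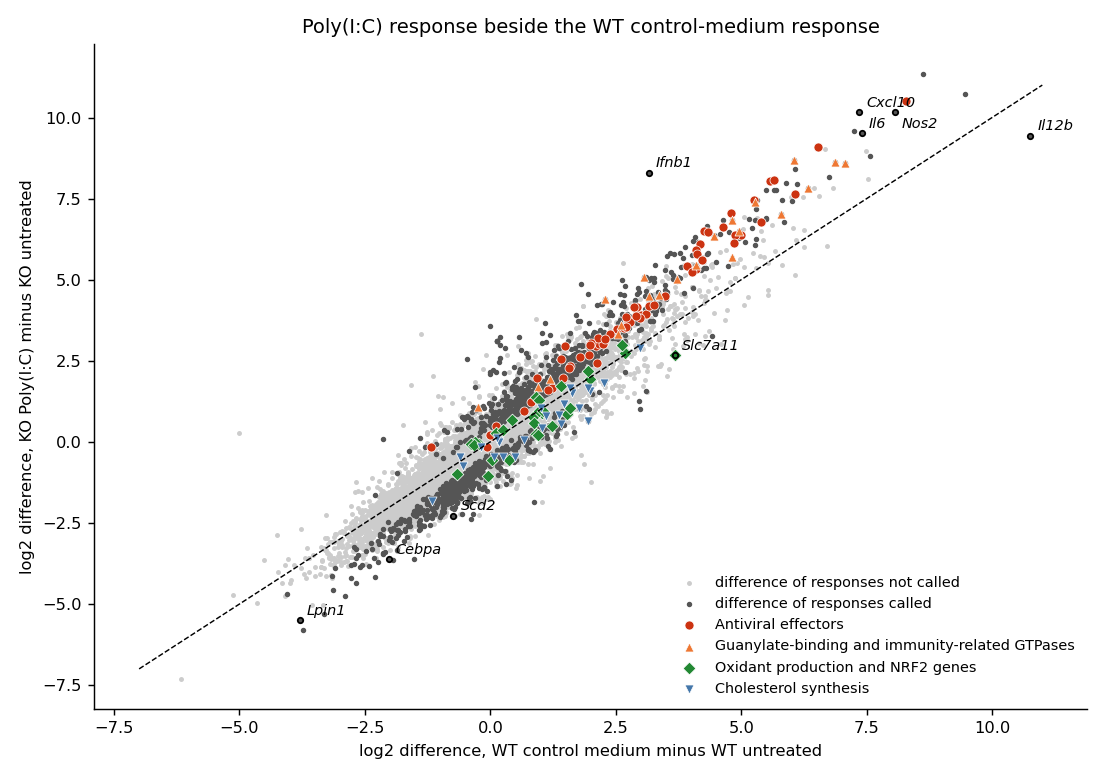
Each point is 1 tested gene, with the log2 difference of WT control medium minus WT untreated on the x axis and of KO Poly(I:C) minus KO untreated on the y axis; the dashed line marks equal values, and Ifnb1, at 0 CPM in untreated KO cells, is placed by the pseudocount. Most antiviral genes and GTPases lie above the line in the upper right, Il12b and Slc7a11 below it, and Lpin1 and Cebpa below it in the lower left.

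Markers of other cells that a marrow culture could hold were read beside these results. Neutrophil markers summed to 610 and 614 CPM untreated and to 1825 and 1819 CPM with Poly(I:C), with 8 of 14 tested members higher and 2 lower. With Poly(I:C) most of that sum was Lcn2 (68.7 and 824 CPM) and Csf3r (153 and 596 CPM), while Ly6g, which defines neutrophils, read 0.0326 and 0 CPM untreated and 0.117 and 0.224 CPM treated. Dendritic cell markers summed to 233 and 180 CPM untreated and to 1060 and 909 CPM with Poly(I:C), with 5 of 9 tested members higher and 2 lower. Nearly all of that sum was Bst2, which is also in the antiviral list. The log2 differences of the 9 ran from −1.21 to 5.44, the highest above that of Bst2, so members other than Bst2 rose too. Flt3 stayed under 0.1 CPM. Of 12 mast cell and basophil markers Hdc (0.179 and 52.8 CPM), Kit and Gata2 rose, while 8, among them Cpa3 and Fcer1a, were listed at 0 in all 4 libraries. B cell markers summed to 125 and 129 CPM untreated and to 65.8 and 66.8 CPM with Poly(I:C), with Cd79b lower by 2.58. T and NK cell markers summed to 0.969 to 1.30 CPM in all 4 libraries. Stromal and endothelial markers summed to 37.0 and 43.0 CPM untreated and to 110 and 124 CPM with Poly(I:C), with 5 of 14 higher, among them Vcam1 (0.146 and 29.8 CPM) and Kdr (1.11 and 1.30 CPM untreated, 37.3 and 37.5 CPM treated). Erythroid and platelet markers summed to 463 and 384 CPM untreated and to 419 and 395 CPM with Poly(I:C), with 1 of 4 lower. The part of other cells in the results was not tested beyond these levels.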

How the data were processed

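Expression of 45318 genes was deposited for 10 libraries of mouse bone marrow derived macrophages, 2 in each of 5 groups. The stranded mRNA kit comes from the labels, and the submitters' processing notes name STAR 2.4.0d, RSEM 1.2.12, DESeq2 and Trim Galore 0.2.8 with no role. Genome build, annotation and counting settings: not given in the sources used here. In the authors' deposited count table the values are whole numbers that lie on 1 grid per library, as reads multiplied by a factor and rounded, so they were treated as a scaled signal and no count model was used. The read depth behind a value is therefore unknown. The deposited rlog table holds log2 values and served as a check.

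Some genes are not reported here. Gene IDs were matched to symbols for 44585 rows, and the 733 unmatched rows held at most 0.125% of a library. Of 20687 genes above 0 in any library, 13171 were tested, namely those that reached 10 units in 2 or more libraries. Values were divided by the library total times a TMM factor (trims of 30% and 5%) and given as CPM, and log2(CPM + 0.1) was fitted over all 10 libraries and 5 groups with limma 3.58.1 (trend, R 4.3.3; 5 residual and 4.81 prior degrees of freedom). P-values were adjusted over the 13171 genes by Benjamini-Hochberg, with a threshold of 0.05, and log2 differences understate the change of low genes. The difference of the KO Poly(I:C) and WT control medium responses was a contrast in the same fit. The procedure was tested on simulated data in which few genes changed, equally in both directions. In the real data most genes were called, so the simulation does not check the scaling under such a change. Python 3.11.15, pandas 2.3.3 and matplotlib 3.10.9 made the tables and figures.

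The 39 lists hold 1080 genes, and 10 of these were not found in the table. The comparison, its members and the lists were chosen with earlier results of these data known. Genes named are the called members of each list with the largest differences, its defining members, the 12 largest differences up and down among called genes with at least 5 CPM in the higher group, values above 0 in all 4 libraries and a symbol that is not a predicted-gene name, and the 3 most abundant called genes in each direction. Some other list members were named after their values were seen. A gene in 2 lists counts under both. Alternatives were pseudocount, filter, scaling, input table, trend, groups in the fit, the replicate number as a block and leaving out each library.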

Additional observations from a re-analysis of the deposited data

How the results depend on the processing

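For the 252 genes named, 3726 of 3776 recomputed values of Poly(I:C) against untreated KO cells kept direction and side of the threshold, 28 lost the call, 16 gained it and 6 changed sign. With scaling by totals alone Irf3 was at −0.65, Tlr4 at −0.45 and Pcna at −0.0019, and Cxcl3, Fth1, H2-Ab1, Ifnar1, Ifnar2, Jun, Per1 and Rfc3 lost the call. Irf3 ranged from −0.11 to 0.31 with 1 library left out, below 0 without KO Poly(I:C) 1 (−0.07) or KO untreated 2, and Csf1r was at 0.029 with the deposited scaling. Of the other lost calls 12 were lost with 1 library left out (Eef2, Fadd, Lpl, Cxcl5, Ppbp and H2-Ab1) and 8 to other settings: Eef2 with the deposited scaling, median-of-ratios scaling, rlog values, no filter and only the groups of the contrast, Fadd with the first and last of these, and Lpl with the deposited scaling. The genes called against untreated numbered 8526 to 10921 under the other settings and 8557 to 8674 with 1 library left out. Against the KO control medium they numbered 8253 to 10963 and 8011 to 8320, with 19% of calls higher by totals alone and 58.1% by the deposited scaling, in place of 47.7%. For the difference from the WT response the count was 2467 by totals alone, 842 without a trend and 438 to 1127 with 1 library left out, in place of 1295; the cause was not tested. No read depth is known, which limits what can be said of genes near 0. Medians of some lists also depended on the pseudocount. With a pseudocount of 1 the median was 2.54 for chemokines (3.36 in the main fit) and 0.93 for class II and co-stimulatory genes (1.53). For alternative activation and repair it was 1.23 (1.86). The called counts of these lists were unchanged.

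With the replicate number as a block, the 3 counts were 9790, 9477 and 1905. Same-numbered libraries correlated in their deviations at 0.172 to 0.306 between the 3 KO groups (0.215 for Poly(I:C) and untreated), 0.315 between the 2 WT groups and 0.013 to 0.110 between genotypes. Not every pair was thus above 0.1, with 2 libraries a group each pair gives 1 value, and the labels name no shared culture or day, so the block is given as an alternative. Under the block Tlr4, Lyz2 and Nr1d2 gained a call, and no call of the named genes was lost.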

Other observations

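The genes below lie outside the lists and were chosen after their values were seen, so they describe no group. Genes of the circadian clock were found in both directions. Dbp, an output gene of the circadian clock, stood at a mean of 21.2 CPM in untreated KO cells and 1.05 CPM with Poly(I:C) (log2 −4.21, SE 0.22, limma adjusted p = 7.08e-08), with 7.29 and 5.99 CPM in the KO control medium. Its relative Tef fell by 2.59, the clock genes Per3, Per2 and Arntl by 3.17, 2.02 and 1.46, and Rora, which drives Arntl, by 1.68. Ciart, Bhlhe40, Nfil3 and Cry1, repressors of the clock, rose by 2.31, 1.46, 1.29 and 1.11, and Per1 rose by 0.88. Nr1d2 and Cry2 were not called (log2 −0.32 and −0.28).

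Cfb, factor B of the alternative complement pathway, went from 6.04 and 8.59 to 720.0 and 784 CPM (6.68), C3 rose by 2.98 to 4330.1 and 5787 CPM, Saa3, a serum amyloid, by 3.99, and Hp, haptoglobin, by 4.49. The inducible heat shock genes Hspa1a and Hspa1b, which are near-identical copies, rose from 0.882 and 0.389 and from 0.555 and 0.162 CPM to 66.7 and 59.0 and to 80.2 and 76.2 CPM. Mir155hg, the host transcript of the inflammatory microRNA miR-155, went from 0.0979 and 0.0648 to 53.0 and 51.6 CPM (8.18); its mature microRNA was not measured. Sesn1, a p53 target, went from 99.9 and 103 to 4.70 and 6.20 CPM (−4.21), Trp53inp1 fell by 3.31 and Deptor, an inhibitor of mTOR, by 3.87. The DNA repair gene Brca2 fell by 3.76, the checkpoint kinase gene Chek2 by 3.60 and the glycosylase gene Neil3 by 3.87. The glucocorticoid-induced Tsc22d3 fell by 2.50 from 57.1 and 55.0 to 9.52 and 10.1 CPM. Of the 6 genes listed at 0 in both untreated KO libraries and at 5 CPM or more with Poly(I:C), 3 are Ifnb1, Cxcl11 and Angpt1, a growth factor for blood vessels that read 5.05 and 5.75 CPM.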
